A study of Homo sapiens with 8 samples.

Results

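The genes described here encode the 5 classes of histone protein and are named by class, H1, H2A, H2B, H3 and H4, and by their place in the histone gene clusters. They were taken as all genes whose symbol starts with H1-, H2AC, H2BC, H3C or H4C in the probe annotation, each read from the probe set that carries its symbol alone and has the highest mean over the 8 arrays. By this rule 50 of 19775 measured genes were included, with 11 H1, 9 H2A, 14 H2B, 7 H3 and 9 H4 genes. The rule goes by symbol and not by place. In RefSeq 42 of the genes lie on chromosome 6, between 25726777 and 27893891 in GRCh38.p14, 2 lie on chromosome 1 and 6 lie elsewhere. Of the 50, 46 are protein coding, H1-9P, H2AC5P and H4C10P are pseudogenes, and H1-10-AS1 is a long noncoding RNA that meets the rule by its symbol only.

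The cells were NCI-H1975, an established human lung adenocarcinoma line driven by a mutant EGFR receptor, and RNA was taken after 24 h. The treatments were 10 nM osimertinib, a covalent inhibitor of mutant EGFR, together with 1 µM alpelisib, an inhibitor of the alpha catalytic subunit of PI3K, either drug alone, and the vehicle DMSO. Each of these 4 was given with 2 mM L-histidinol, an analog of histidine that blocks the charging of its tRNA, and without it. Every condition had 1 array, so L-histidinol was read over 4 pairs of arrays and each drug treatment over 2 arrays against 2, those with and without L-histidinol. All groups share the one cell line, and the labels used here do not say whether the cultures were separate. The p-values of the fit therefore set each treatment difference against the spread of the arrays around additive effects, which may be technical, and the small number of arrays limits their precision.

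Most of these genes are replication-dependent: they are transcribed in S phase, when new DNA has to be packed into nucleosomes, from promoters served by the coactivator NPAT. Their mRNAs normally lack a poly(A) tail and end in a stem-loop that is bound by SLBP and cut with the U7 snRNP. A part of the histone genes also yields polyadenylated transcripts, which are known from cells that leave the cycle or differentiate. H2A, H2B, H3 and H4 form the nucleosome core and H1 binds the linker DNA. Standard labelling for this type of array primes on poly(A) tails, so it mainly reads polyadenylated histone RNA, and the share of each transcript with a tail was not measured here. In these bulk samples fewer cells in S phase and less RNA per cell cannot be told apart.

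The promoters of 7 members that carry the main differences are shown first, as the 250 bases before the RefSeq start (GRCh38.p14), 5′ to 3′ on the strand of the gene. H1-2, H2AC8, H2AC6, H2BC5, H2BC21 and H4C8 were higher with both drugs, and H2BC11 was lower on the probe set that carries its symbol alone. The brighter probe sets that name H2BC11 together with H2BC8 were higher, as given below. Capitals mark the letters of 5 motifs searched on both strands, the TATA box TATAAA, the CCAAT box CCAAT, the octamer ATTTGCAT, the H1 AC box AAACACA and the H4 core GGTCCG that is read by the factor HINFP. Motifs may overlap, as the CCAAT box and an H4 core do in H2BC21.
H1-2 (chr6:26056471-26056720, minus strand): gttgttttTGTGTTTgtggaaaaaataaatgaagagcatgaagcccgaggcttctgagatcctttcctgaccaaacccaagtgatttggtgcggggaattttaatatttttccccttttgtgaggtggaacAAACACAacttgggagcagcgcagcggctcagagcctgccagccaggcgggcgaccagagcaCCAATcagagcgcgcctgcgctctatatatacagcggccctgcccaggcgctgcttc
H2AC8 (chr6:26216671-26216920, plus strand): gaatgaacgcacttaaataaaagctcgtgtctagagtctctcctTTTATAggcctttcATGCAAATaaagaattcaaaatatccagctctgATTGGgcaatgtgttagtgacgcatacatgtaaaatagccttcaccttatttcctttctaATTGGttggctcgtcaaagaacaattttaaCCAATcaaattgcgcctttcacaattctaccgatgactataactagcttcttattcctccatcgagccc
H2AC6 (chr6:26123922-26124171, plus strand): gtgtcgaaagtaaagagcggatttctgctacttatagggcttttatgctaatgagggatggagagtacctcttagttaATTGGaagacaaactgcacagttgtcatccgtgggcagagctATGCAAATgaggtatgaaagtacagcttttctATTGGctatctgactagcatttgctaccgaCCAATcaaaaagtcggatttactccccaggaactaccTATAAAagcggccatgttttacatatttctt
H2BC5 (chr6:26157871-26158120, plus strand): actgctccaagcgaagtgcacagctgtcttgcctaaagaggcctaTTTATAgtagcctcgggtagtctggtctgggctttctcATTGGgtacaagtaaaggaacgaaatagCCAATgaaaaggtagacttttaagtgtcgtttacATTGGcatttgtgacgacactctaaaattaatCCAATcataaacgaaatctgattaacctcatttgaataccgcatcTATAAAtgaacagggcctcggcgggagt
H2BC21 (chr1:149886683-149886932, minus strand): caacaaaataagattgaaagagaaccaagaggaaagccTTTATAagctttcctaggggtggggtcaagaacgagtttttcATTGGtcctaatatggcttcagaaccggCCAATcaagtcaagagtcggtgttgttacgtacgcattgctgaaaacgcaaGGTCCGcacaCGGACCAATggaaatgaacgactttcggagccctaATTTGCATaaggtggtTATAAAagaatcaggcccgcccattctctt
H4C8 (chr6:26285535-26285784, minus strand): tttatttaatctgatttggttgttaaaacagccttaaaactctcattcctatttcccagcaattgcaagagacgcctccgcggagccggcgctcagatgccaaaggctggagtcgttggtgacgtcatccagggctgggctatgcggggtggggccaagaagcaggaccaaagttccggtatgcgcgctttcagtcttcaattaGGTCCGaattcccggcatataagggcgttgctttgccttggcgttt
H2BC11 (chr6:27132796-27133045, minus strand): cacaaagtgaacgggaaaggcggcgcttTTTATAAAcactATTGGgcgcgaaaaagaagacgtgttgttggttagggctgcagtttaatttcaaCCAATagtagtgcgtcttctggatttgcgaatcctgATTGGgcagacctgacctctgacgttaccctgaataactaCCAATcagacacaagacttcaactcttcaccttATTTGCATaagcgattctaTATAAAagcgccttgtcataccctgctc

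The motifs differed between the histone classes. The octamer stood in 11 of 16 H2A and 14 of 18 H2B promoters of the RefSeq table, and in 1.63% of all 35116 promoters. Some H2A and H2B members start back to back, 194 to 246 bases apart. Their windows overlap, so the same octamer can be counted in both classes. The H1 AC box stood in 7 of 9 H1 promoters against 4.82% of all, and the H4 core in 12 of 13 H4 promoters against 9.43% of all. The TATA box was present in 64.2% of the 67 histone promoters and 10.7% of all promoters, and the CCAAT box in 83.6% and 32.0%. H2BC11, whose single-symbol probe set fell with the drugs, and H2BC21, which rose, both carry the octamer. Its first bases are at -47 and -46 in that order, and those of a TATA box at -28 and -30. The H2BC5 window holds 4 CCAAT boxes and no match to the octamer letters. A match is a description of the letters and not of binding. Of the 50 members 43 had a promoter in the table.

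The levels are given as log2 of the deposited array intensity. A mean of at least 5 over the 8 arrays was reached by 21 members, and the other 29 were dim. At least 1 of 6 comparisons called 26 members, of which 18 were above that level and 8 were dim, and 24 members were called in none. The share of all genes called in at least 1 comparison was not counted, so the 26 are not set against it. With both drugs against vehicle, 21.4% of all genes were called higher and 19.2% lower. A gene was called at a limma p-value below 0.05 after Benjamini and Hochberg adjustment over all 19775 genes. Probe sets of 7 members end in _x_at and those of 4 in _s_at, which marks probes that can read near-identical copies, so the values of these 11 cannot be given to 1 gene with certainty. They are H1-10, H2AC6, H2AC14, H2BC5, H2BC6, H2BC9, H2BC12L, H2BC21, H3C2, H3C8 and H4C11.

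**Figure D1:**
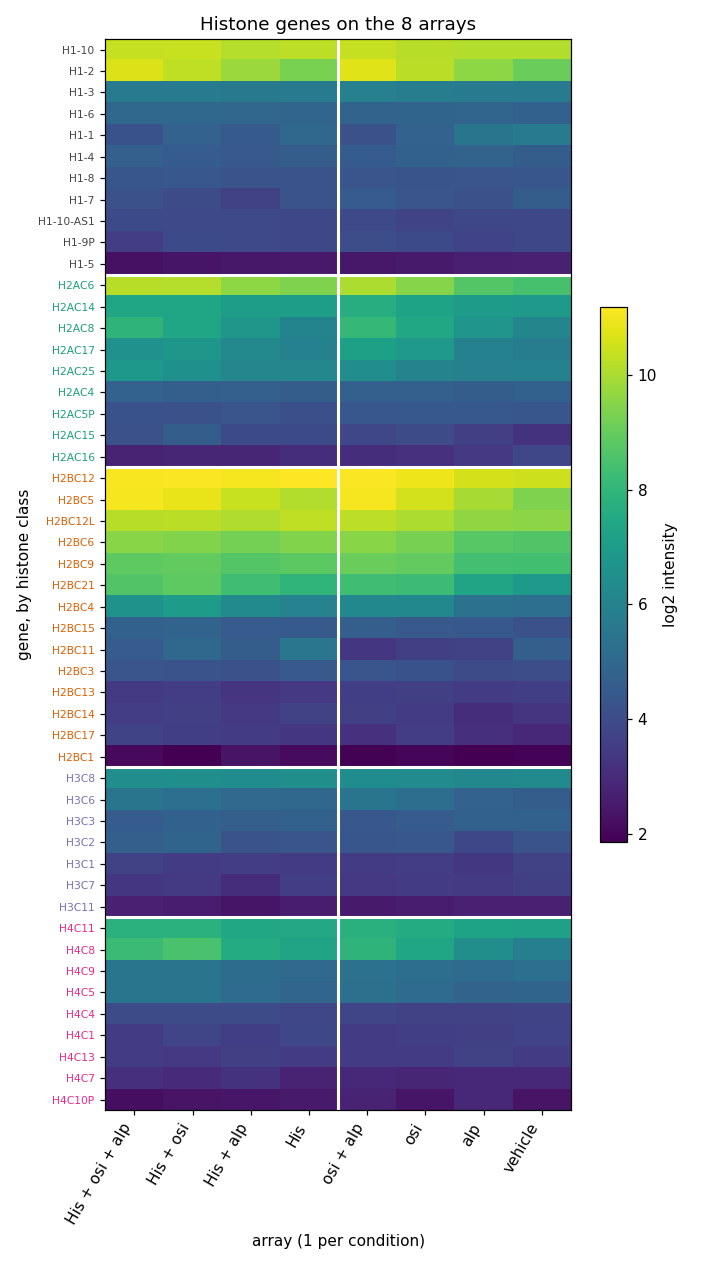
Log2 intensity of the 50 histone genes (rows, by class and then by mean) on the 8 arrays (columns, 1 array per condition, His for L-histidinol, osi for osimertinib, alp for alpelisib), with the arrays with L-histidinol left of the white line. Most rows are dim and change little across columns. On each side of the line H1-2, H2AC6, H2AC8, H2BC5, H2BC21 and H4C8 are brightest in the columns with osimertinib.

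With osimertinib plus alpelisib, 17 of the 50 histone genes rose against vehicle and 3 fell. Over all genes 21.4% were called higher and 19.2% lower in this comparison. The members' median difference was 0.15 on the log2 scale, beside 0.00 for all genes. By class 6 of 9 H2A, 6 of 14 H2B, 3 of 9 H4, 1 of 11 H1 and 1 of 7 H3 genes rose, and the 3 that fell were H1-1, H2AC16 and H2BC11. The median differences were 0.50 for H2A, 0.32 for H2B, 0.18 for H4, 0.04 for H1 and -0.01 for H3.

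Among the H1 genes, H1-2, a linker histone of the chromosome 6 cluster, stood out. With L-histidinol its log2 intensity was 10.69 with both drugs, 10.29 with osimertinib, 9.80 with alpelisib and 9.33 with vehicle. Without L-histidinol it was 10.76 with both drugs, 10.24 with osimertinib, 9.60 with alpelisib and 9.06 with vehicle. The drug treatments kept the same order in both sets, and none of the 4 overlapped another. H1-2 was higher by 1.53 ± 0.08 with both drugs (SE; adjusted p = 1.15e-07), by 1.07 with osimertinib (adjusted p = 4.11e-06) and by 0.51 with alpelisib (adjusted p = 0.00316). The combination was also higher than osimertinib alone by 0.46 (adjusted p = 0.00425) and than alpelisib alone by 1.02 (adjusted p = 7.43e-06). L-histidinol left a difference of 0.11, which was not called.

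H1-1, another linker histone of the same cluster, went the other way. Its log2 intensity with L-histidinol was 4.19 with both drugs, 4.80 with osimertinib, 4.51 with alpelisib and 5.01 with vehicle, and without L-histidinol it was 4.17, 4.80, 5.47 and 5.67 in the same order of treatments. Both arrays with the combination lay below both vehicle arrays. H1-1 was lower by the fitted log2 difference of -1.16 ± 0.21 (SE; adjusted p = 0.000765) with both drugs, and the differences with osimertinib, -0.54, and alpelisib, -0.35, were not called. Its mean log2 of 4.83 makes it a dim gene. H1-10, a replication-independent linker histone on chromosome 3, ranged over the 8 arrays from 10.13 to 10.42 and was called only with the combination against alpelisib, at 0.23 (adjusted p = 0.0269). H1-7, a testis histone on chromosome 12, was dim and was lower with L-histidinol at -0.39 (adjusted p = 0.00648) and with alpelisib at -0.48 (adjusted p = 0.0235). The 2 other H1-7 probe sets differed by -0.08 and 0.08 with L-histidinol and by 0.19 and -0.20 with alpelisib, so they do not bear the calls out. H1-3, H1-4, H1-5 and H1-6 were not called in any of the 6 comparisons.

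H2AC8 gave the largest rise of any member with both drugs. With L-histidinol it read 7.93 with both drugs, 7.33 with osimertinib, 6.79 with alpelisib and 6.06 with vehicle. Without L-histidinol it read 8.09, 7.44, 6.74 and 6.14 in that order. No drug treatment overlapped another, and L-histidinol differences within pairs ran from -0.16 to 0.05. The difference was 1.91 ± 0.09 with both drugs (SE; adjusted p = 4.73e-08), which is 3.76-fold, and 1.28 with osimertinib (adjusted p = 2.36e-06) and 0.66 with alpelisib (adjusted p = 0.0012). H2AC8 and H1-2 were the only members higher with the combination than with osimertinib alone, H2AC8 by 0.63 (adjusted p = 0.00153).

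H2AC6 responded to the drugs and to L-histidinol. Its log2 intensity with L-histidinol was 10.20 with both drugs, 10.17 with osimertinib, 9.60 with alpelisib and 9.38 with vehicle. Without L-histidinol it was 10.06, 9.49, 8.70 and 8.47 in that order. Every array with osimertinib lay above both vehicle arrays, and each array with L-histidinol lay above its partner. H2AC6 was higher by 1.21 with both drugs (adjusted p = 3.78e-05), by 0.91 with osimertinib (adjusted p = 0.000636) and by 0.66 with L-histidinol (adjusted p = 0.0012). H2AC17 was higher by 1.00 with both drugs (adjusted p = 0.000488) and by 0.96 with osimertinib (adjusted p = 0.00113), with a difference of -0.06 for L-histidinol that was not called.

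**Figure D2:**
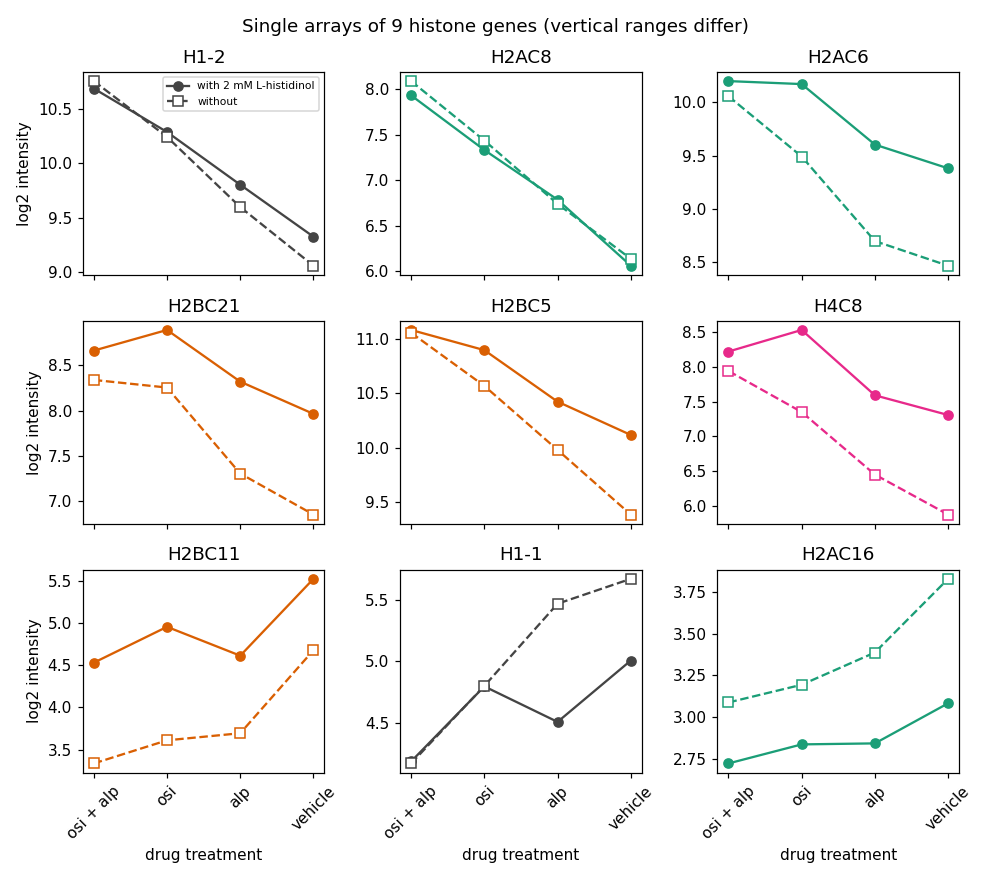
Log2 intensity (vertical axis, with a range of its own in each panel) of 9 histone genes by drug treatment (horizontal axis), with 1 point per array, filled circles and solid lines with 2 mM L-histidinol and open squares and dashed lines without. H2AC8 runs from 6.06 to 8.09 with the 2 lines close together, H4C8 runs from 5.88 to 8.53 with the lines closest under both drugs, and H2BC11, H1-1 and H2AC16 slope the other way.

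The remaining H2A genes moved less. H2AC14 rose by 0.50, H2AC25 by 0.55 and H2AC15 by 0.43 with both drugs (adjusted p = 0.00499, 0.000971 and 0.0252). H2AC25 lies on chromosome 1 away from the main clusters, and its second probe set differed by 0.17 with both drugs and was not called. A second probe set of H2AC15 differed by 0.05 and was not called either. H2AC15 is dim, with a mean of 3.91, and also rose with osimertinib, by 0.71 (adjusted p = 0.00191), and with L-histidinol, by 0.51 (adjusted p = 0.00349). Its second probe set differed by 0.12 with osimertinib and 0.09 with L-histidinol, so it does not bear these calls out. H2AC16 fell with both drugs, at -0.55 (adjusted p = 0.0061), with osimertinib, at -0.44 (adjusted p = 0.0288), and with L-histidinol, at -0.50 (adjusted p = 0.00361). It was dim on all arrays, from 2.72 to 3.08 with L-histidinol and from 3.09 to 3.83 without.

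L-histidinol raised 13 of the 50 members and lowered 2, and over all genes it raised 11.4% and lowered 9.17%. Of the 13, 8 were among the 14 H2B genes, 3 were H2A genes, 1 was an H3 gene and 1 an H4 gene. The median difference of the H2B genes was 0.33, beside -0.01 for all genes. No H1 gene rose with L-histidinol. Of the 8 H2B calls only those of H2BC4, H2BC11 and H2BC21 held in every alternative setting that gave a value, and those of H2BC5, H2BC6, H2BC12, H2BC12L and H2BC17 were lost in 3 to 9 settings. H2BC5, H2BC6, H2BC12L and H2BC21 are among the members whose probe sets can read near-identical copies. The ratio of 3′ to 5′ probe sets of ACTB, a sign of RNA integrity, was 1.10 to 1.15 on the arrays with L-histidinol and 1.04 to 1.07 on those without it, so it moved with the L-histidinol differences, and its part in them was not tested. The ratio of GAPDH was between 0.966 and 1.01 on all 8 arrays.

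H2BC21, on chromosome 1, was among those that rose under both kinds of treatment. Its log2 intensity with L-histidinol was 8.66 with both drugs, 8.89 with osimertinib, 8.32 with alpelisib and 7.96 with vehicle, and without L-histidinol it was 8.34, 8.26, 7.31 and 6.85 in that order. All arrays with osimertinib lay above both vehicle arrays, and the L-histidinol array was the higher of its pair in 4 of 4 pairs. The differences were 0.77 ± 0.11 for L-histidinol (SE; adjusted p = 0.00061), 1.17 for osimertinib (adjusted p = 0.000155) and 1.09 for both drugs (adjusted p = 0.000108). For alpelisib the difference of 0.40 was not called.

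H2BC4 and H2BC5 followed a similar course. H2BC4 read 6.60 with both drugs, 6.98 with osimertinib, 6.30 with alpelisib and 6.01 with vehicle under L-histidinol, and 6.21, 6.20, 5.36 and 5.25 without it. It rose by 0.72 with L-histidinol (adjusted p = 0.000351), by 0.96 with osimertinib (adjusted p = 0.000179) and by 0.78 with both drugs (adjusted p = 0.000388). H2BC5 read 11.08, 10.90, 10.42 and 10.12 under L-histidinol and 11.06, 10.57, 9.98 and 9.38 without it, in the same order of treatments. Both genes were higher on every array with osimertinib than on either vehicle array. For H2BC5 the rises were 0.38 with L-histidinol (adjusted p = 0.00833), 0.98 with osimertinib (adjusted p = 0.000105), 0.45 with alpelisib (adjusted p = 0.0342) and 1.32 with both drugs (adjusted p = 4.16e-06). Its second probe set differed by 0.26 with L-histidinol, 0.56 with osimertinib, 0.07 with alpelisib and 0.79 with both drugs. The alpelisib call of H2BC5 was lost in 8 alternative settings, among them the mean of its probe sets and leaving out the vehicle array, and its L-histidinol call in 3.

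H2BC6, H2BC9, H2BC12 and H2BC12L had smaller differences. With both drugs H2BC6 rose by 0.48 (adjusted p = 0.0166) and H2BC9 by 0.36 (adjusted p = 0.0382), as did the dim H2BC15, by 0.38 (adjusted p = 0.0294). With L-histidinol H2BC6 rose by 0.33, H2BC12 by 0.34 and H2BC12L by 0.32 (adjusted p = 0.0348, 0.0208 and 0.0464). Their L-histidinol pairs differed, in that order, by 0.755, 0.705 and 0.743 with vehicle and 0.461, 0.481 and 0.426 with alpelisib. The differences were 0.135, 0.193 and 0.190 with osimertinib and -0.013, -0.023 and -0.093 with both drugs, so the combination showed no rise. The H2BC12L symbol stands for a gene on chromosome 21. These calls were not firm. With both drugs the call of H2BC9 was lost in 9 alternative settings, that of H2BC6 in 4 and that of H2BC15 in 3, each of them without the vehicle array and without the array of both drugs. With L-histidinol the call of H2BC12L was lost in 9, that of H2BC6 in 8 and that of H2BC12 in 6, each of them without the vehicle array.

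H2BC11 was the exception among the H2B genes. Its log2 intensity with L-histidinol was 4.53 with both drugs, 4.96 with osimertinib, 4.61 with alpelisib and 5.52 with vehicle. Without L-histidinol it was 3.34, 3.61, 3.69 and 4.68 in that order. Every drug-treated array lay below the vehicle array of its set, and each array with L-histidinol lay above its partner. H2BC11 was higher by 1.08 ± 0.10 with L-histidinol (SE; adjusted p = 6.08e-05) and lower with both drugs, at -1.17 ± 0.14 (SE; adjusted p = 3.69e-05), with osimertinib, at -0.82 (adjusted p = 0.001), and with alpelisib, at -0.95 (adjusted p = 0.00237). It is a dim gene, and 2 brighter probe sets annotated to both H2BC11 and H2BC8 were higher by 0.62 and 0.43 with both drugs. The probe sets that name H2BC11 therefore disagree in direction.

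Of the 7 H3 genes, H3C6 and H3C2 were called. H3C6 rose by 0.70 with both drugs (adjusted p = 0.00061) and by 0.45 with osimertinib (adjusted p = 0.016), and its second, dim probe set rose by 1.69 with both drugs. H3C6 read 5.49 with both drugs, 5.25 with osimertinib, 5.06 with alpelisib and 4.96 with vehicle under L-histidinol, and 5.49, 5.22, 4.78 and 4.61 without it. The arrays with the combination lay above all others. H3C2 rose by 0.31 with L-histidinol (adjusted p = 0.0331), a call that was lost in 6 alternative settings. Its L-histidinol pairs differed by 0.08 with vehicle, 0.48 with osimertinib, 0.342 with alpelisib and 0.327 with both drugs. H3C1, H3C3, H3C7, H3C8 and H3C11 were not called in any comparison. All H3 members but H3C6 and H3C8 were dim. Outside the rule, a probe set listing 10 H3 symbols, with a mean of 6.95, rose by 1.68 with both drugs. Another that lists H2AC7 beside the H3 symbols, with a mean of 6.25, rose by 1.13. A dim probe set of several H3 symbols, with a mean of 3.36, differed by -0.002 and was not called.

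H4C8 led the H4 genes. Its log2 intensity with L-histidinol was 8.22 with both drugs, 8.53 with osimertinib, 7.59 with alpelisib and 7.31 with vehicle. Without L-histidinol it was 7.94, 7.35, 6.45 and 5.88 in that order. Every array with osimertinib lay above both vehicle arrays, and L-histidinol was the higher of each pair, by 0.28 with both drugs, 1.18 with osimertinib, 1.14 with alpelisib and 1.43 with vehicle. H4C8 was higher by 1.01 ± 0.14 with L-histidinol (SE; adjusted p = 0.000664), by 1.35 with osimertinib (adjusted p = 0.000378) and by 1.49 with both drugs (adjusted p = 8.64e-05). A second probe set for H4C8 gave 1.00, 1.18 and 1.49 in these comparisons. A dim probe set outside the rule lists 14 H4 symbols and has the accession of H4C8. It differed by -0.15 with both drugs and was not called. The probe set of H4C11 has an accession of H4C12 in the annotation. H4C5 rose by 0.50 and H4C11 by 0.46 with both drugs (adjusted p = 0.00406 and 0.000963), and H4C1, H4C4, H4C7, H4C9 and H4C13 were not called in any comparison. The others never called were H1-8, H1-9P, H1-10-AS1, H2AC4, H2AC5P, H2BC1, H2BC3, H2BC13, H2BC14 and H4C10P.

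**Figure D3:**
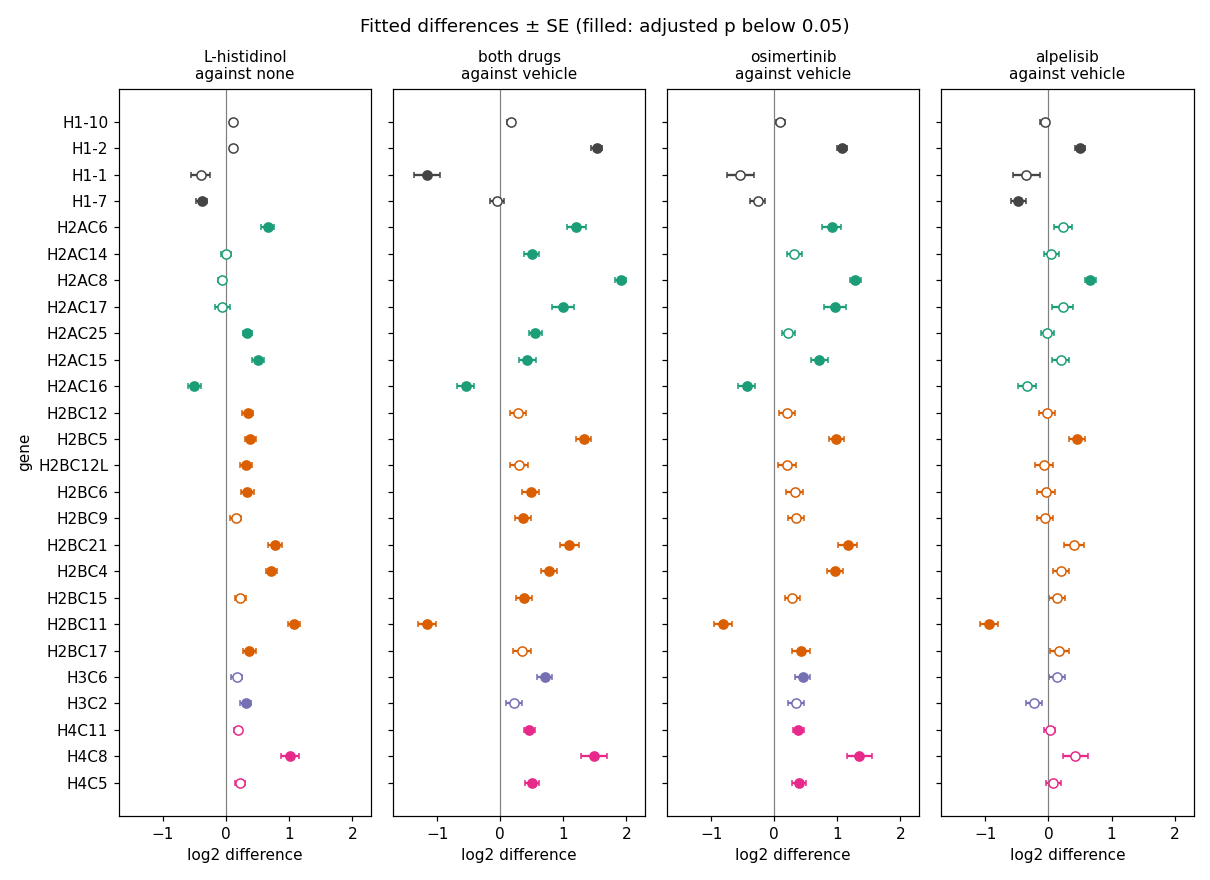
Fitted log2 differences (horizontal axis, points with bars of 1 SE) of the 26 histone genes called in at least 1 of 6 comparisons (vertical axis, coloured by class as in the gene labels of the level plot), with filled points where the adjusted p was below 0.05. H2AC8 has the largest rise with both drugs, at 1.91, and H2BC11 is higher with L-histidinol, at 1.08, and lower with all 3 drug treatments.

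Osimertinib alone raised 13 members and lowered 2, H2AC16 and H2BC11, while 16.4% of all genes were called higher and 14.0% lower. Alpelisib alone raised H1-2, H2AC8 and H2BC5 and lowered H1-7 and H2BC11, against 7.08% of all genes higher and 4.38% lower, so the share of members called was near that of all genes. Adding alpelisib to osimertinib raised 2 members and lowered none, where 5.96% of all genes were higher and 7.41% lower. Adding osimertinib to alpelisib raised 18 members and lowered H1-1, where 14.6% of all genes were higher and 14.4% lower. Under every alternative setting that gave a value, the calls with both drugs against vehicle held for 13 of 20 members, H1-1, H1-2, H2AC6, H2AC8, H2AC17, H2AC25, H2BC4, H2BC5, H2BC11, H2BC21, H3C6, H4C8 and H4C11. With osimertinib they held for 10 of 15, H1-2, H2AC6, H2AC8, H2AC15, H2AC17, H2BC4, H2BC5, H2BC11, H2BC21 and H4C8, and with L-histidinol for 7 of 15, H2AC6, H2AC15, H2AC16, H2BC4, H2BC11, H2BC21 and H4C8. Each other call with both drugs against vehicle, with osimertinib or with L-histidinol was lost in at least 1 setting. The 6 comparisons share arrays, and their counts are not independent of each other. The alpelisib calls depended on single arrays, since 0 were left without the array of L-histidinol plus alpelisib, 3 without the vehicle array and 3 without the alpelisib array.

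The effects of L-histidinol and the drugs were also tested for departure from additivity. No member was called in any of the 3 interactions by limma, and over all genes 0.00% were called for L-histidinol with osimertinib, 0.00% for L-histidinol with alpelisib and 0.0405% for osimertinib with alpelisib. At an unadjusted p below 0.05 there were 11 members for L-histidinol with osimertinib, of which 10 had a negative term, while 8.36% of all genes passed and 3.57% did so with a negative term. For L-histidinol with alpelisib there were 5, all negative, while 5.05% of all genes passed and 2.46% were negative. For the 2 drugs there were 5, of which 2 were negative, while 9.43% of all genes passed and 6.53% were negative. The lowest adjusted p of a member was 0.169 for L-histidinol with osimertinib, shared by H2BC12 and H2BC12L. In H2BC12 the term was -0.51 and in H2BC21 it was -0.58 (adjusted p = 0.187). For H2BC21 the L-histidinol array exceeded its partner by 0.32 with both drugs, 0.64 with osimertinib, 1.02 with alpelisib and 1.11 with vehicle.

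Gene structure and position were compared with the differences as a description. On chromosomes 1 and 6, 5 members span more than 1000 bases in RefSeq, from 2224 in H2BC21 to 13229 in H2BC5, with H2BC4, H2BC12 and H3C6 between them. Replication-dependent histone genes are typically short and lack introns. Of these 5 long genes 4 rose with both drugs, with a median difference of 0.78, and of the other 37 protein-coding members on these chromosomes, whose span is shorter, 13 rose, with a median of 0.13. The pseudogenes H2AC5P and H4C10P were left out of this count. Over all genes 21.4% were called higher with both drugs. All 5 long genes have a mean log2 of at least 5, from 5.11 in H3C6 to 10.96 in H2BC12, and many of the shorter ones are dim. Among the 21 members of at least that level, in a fit of such genes only, 15 rose with both drugs. The share of all genes called higher in that fit was not counted, so the 15 cannot be set against it. The part of brightness in the difference between long and short genes was not tested. The members include 4 pairs of H2A and H2B genes that start back to back within 194 to 246 bases. In the pair of H2AC6 and H2BC4, 246 bases apart, both rose with both drugs, by 1.21 and 0.78, and with L-histidinol, by 0.66 and 0.72. In the pair of H2AC17 and H2BC17, 240 bases apart, H2AC17 rose by 1.00 with both drugs and H2BC17 differed by 0.35, which was not called, while L-histidinol raised H2BC17 by 0.36 and not H2AC17. With osimertinib both rose, H2AC17 by 0.96 and H2BC17 by 0.43. H2BC17 is dim, with a mean of 3.36, and its call was lost in 6 alternative settings for L-histidinol and in 8 for osimertinib.

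Another 20 probe sets carry the symbols of several histone genes and lie outside the rule, and they were fitted with every other probe set on the arrays. With both drugs 14 of them were higher, 1 was lower and 5 were not called, while 15.5% of all 54613 probe sets were higher and 14.5% lower. A probe set for H2AC18 and H2AC19 read 11.64 with both drugs, 11.25 with osimertinib, 10.90 with alpelisib and 10.40 with vehicle under L-histidinol, and 11.64, 11.13, 10.56 and 10.02 without it. It rose by 1.43 ± 0.08 with both drugs (SE; adjusted p = 3.15e-08), and the 4 drug treatments did not overlap. The 1 that fell lists 14 H4 symbols, and the accession in its annotation is that of H4C3. It read 8.64 with both drugs, 9.30 with osimertinib, 9.60 with alpelisib and 9.96 with vehicle under L-histidinol, and 8.36, 9.11, 10.10 and 10.12 without it, so both arrays with the combination lay below all others. The difference with both drugs was -1.54 ± 0.14 (SE; adjusted p = 1.31e-06), opposite to H4C8.

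**Figure D4:**
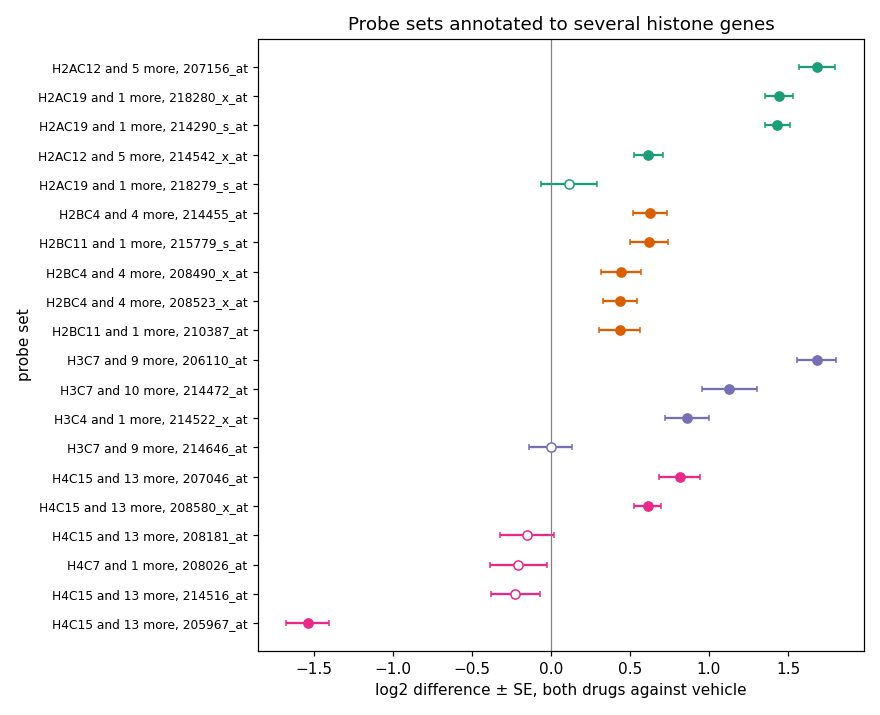
Log2 difference with both drugs against vehicle (horizontal axis, points with bars of 1 SE, filled where the adjusted p was below 0.05) for the 20 probe sets annotated to several histone genes (vertical axis, coloured by class), which the counts of members leave out. All H2A, H2B and H3 probe sets that were called are above 0, and the H4 probe sets range from -1.54 to 0.81.

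The genes of S phase and of histone supply are set beside the members, since histone transcription is coupled to replication. As background for these lists, 19.2% of all genes were called lower with both drugs, 14.0% with osimertinib, 4.38% with alpelisib and 9.17% with L-histidinol. Of 25 measured replication genes 25 fell with both drugs, with a median of -2.08, and 25 fell with osimertinib, with a median of -1.17. MCM10, which is needed to start replication forks, fell to 4.58 and 4.61 with both drugs, against 7.85 and 8.26 with vehicle, at -3.46 (adjusted p = 1.52e-07). With alpelisib 1 of the 25 fell, and with L-histidinol 14 fell and none rose. The members' own counts with both drugs were 17 higher and 3 lower, so most called members were higher where the replication genes were lower. What part a smaller share of cells in S phase has in the member differences was not tested.

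Factors that make and process histone mRNA mostly fell. Of 24 measured, 20 were lower and 1 higher with both drugs, 18 lower and 1 higher with osimertinib, 4 lower with alpelisib, and 6 lower and 3 higher with L-histidinol. SLBP, the stem-loop binding protein, read 9.59 and 9.84 with both drugs, against 10.05 and 10.47 with vehicle, at -0.55 (adjusted p = 2.58e-05), and with L-histidinol it differed by -0.35 (adjusted p = 0.000408). NPAT fell with both drugs, at -0.38 (adjusted p = 0.0032). The largest falls were in CCNE2, at -2.50, its kinase partner CDK2, at -1.50, the S phase activator E2F1, at -1.39, and CCNE1, at -1.31, and the CDK2 and cyclin E kinase is known to activate NPAT. HINFP, the factor that binds the H4 core shown in the H4C8 promoter, rose by 0.61 (adjusted p = 9.02e-05).

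Histone chaperones and replication-independent variants were counted in the same way, beside 21.4% of all genes higher and 19.2% lower with both drugs. MCM2 is counted both among the chaperones and among the replication genes. Of 23 chaperones and assembly factors 17 fell and 2 rose with both drugs, with CHAF1A, a subunit of the CAF-1 assembly factor, at -1.84 (adjusted p = 6.09e-07), ASF1B, a chaperone of H3 and H4, at -1.72 (adjusted p = 3.28e-06), and HJURP, the chaperone of CENPA, at -1.89 (adjusted p = 1.3e-06). The 2 that rose were ATRX, a chromatin remodeller that works with DAXX, at 0.64 (adjusted p = 3.02e-05), and SPTY2D1, at 0.30 (adjusted p = 0.0182). Of 9 measured variants 5 fell and 1 rose with both drugs. H2AX, whose gene yields both a stem-loop and a polyadenylated mRNA, read 9.36 and 9.28 with both drugs, against 10.72 and 11.02 with vehicle, at -1.55 (adjusted p = 4.25e-07). The centromeric H3 variant CENPA differed by -0.99 (adjusted p = 0.000149) and H2AJ, an H2A variant, by 0.39 (adjusted p = 0.000157).

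**Figure D5:**
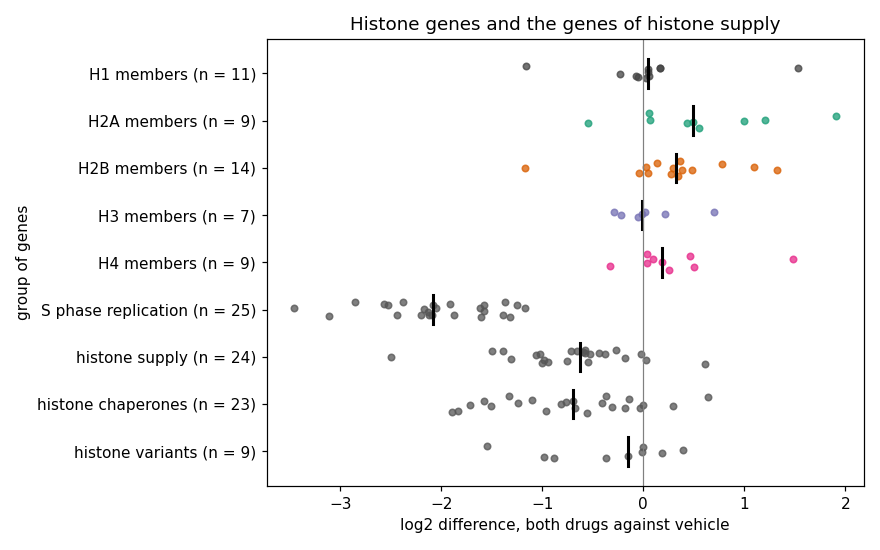
Log2 difference with both drugs against vehicle (horizontal axis) of the histone genes by class and of 4 lists of related genes (rows, 1 point per gene, with a black bar at the median). The H2A and H2B members sit mostly above 0, with medians of 0.50 and 0.32, and all 25 replication genes sit below 0, with a median of -2.08.

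Median intensity per array lay between 21.8 and 22.4. The 8 epithelial markers had means from 8.53 to 13.06 and the 10 markers of blood, fibroblasts and endothelium means from 2.17 to 5.79. Of the epithelial markers 6 of 8 rose with both drugs, 6 with osimertinib and 5 with alpelisib, and 5 of 8 fell with L-histidinol. Their summed intensity was 31912 and 36405 with both drugs, 28562 and 33635 with osimertinib, and 28510 and 31706 with alpelisib, against 24846 and 27105 with vehicle, each with L-histidinol first. The epithelial markers thus moved with the member differences under the drugs, and their part in them was not tested. Of the 10 markers of other cell types LUM and CDH5 rose with both drugs and LUM with osimertinib, and none was called with alpelisib or L-histidinol. Their summed intensity was 209.4 and 229.5 with both drugs, 218.4 and 224.0 with osimertinib, and 202.3 and 205.7 with alpelisib, against 212.0 and 203.8 with vehicle. Both LUM and CDH5 were dim, with means of 2.17 and 2.71. With each array centred on its median the split of members with both drugs was 13 higher and 7 lower, and that of all called genes was 36.6% higher in place of 52.7%, since the median of all genes moved to -0.13.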

How the data were processed

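Expression was measured on 8 Affymetrix HG-U133 Plus 2.0 arrays, 1 per condition. Per the submitters' processing notes the authors normalized them with RMA and the affy package, with no version stated. The deposited values are linear intensity, and log2 was taken before anything else, where a table already on the log2 scale had been foreseen. The probe table gave 41091 probe sets with 1 gene symbol, 1801 with several and 11721 with none. For each of 19775 genes the single-symbol probe set with the highest mean was used. No filter on dim genes was applied.

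The limma package (3.58.1, under R 4.3.3) was used with an intensity trend to fit L-histidinol plus a drug treatment of 4 levels, with 3 residual and 8.08 prior degrees of freedom. P-values were adjusted over all genes by Benjamini and Hochberg, and genes were called below 0.05. Interactions came from a fit of all 2-way terms with 1 residual degree of freedom, moderated with the prior of the additive fit. An added fit over all 54613 probe sets without controls, chosen after seeing the data, served the probe sets with several symbols. Coordinates and promoters are from RefSeq, GRCh38.p14. The scripts were tested on simulated data. The members, the lists and the genes named were chosen with earlier results of these data known, the named genes as those with a mean log2 of at least 5 or a call, and up to 4 genes per list. SLBP, NPAT, HINFP, ATRX and SPTY2D1 were named outside this rule, after their values were seen. Alternatives were the mean of probe sets, no _x_at and _s_at probe sets, arrays centred on their median, log2(intensity + 16), only genes whose mean log2 reached 5, no intensity trend, all 2-way terms, and each array left out in turn. Python 3.11.15, numpy 2.4.6, pandas 2.3.3 and matplotlib 3.10.9 were used.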

Additional observations from a re-analysis of the deposited data

How the results depend on the processing

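With 1 array per condition, leaving out an array removes a condition, and the array left alone in its treatment is assumed to vary like the others. No alternative reversed a called difference. The shares of all genes called with single arrays left out were not counted, so the counts of members below cannot be set against them. Members called numbered 15 for L-histidinol, 15 for osimertinib, 5 for alpelisib, 20 for both drugs against vehicle, 2 for both against osimertinib and 19 for both against alpelisib. Leaving out single arrays gave 9 to 17 for L-histidinol, 11 to 19 for osimertinib, 0 to 7 for alpelisib, 15 to 23 for both drugs against vehicle, 1 to 7 for both against osimertinib and 7 to 21 for both against alpelisib. For L-histidinol the count was 9 without the alpelisib array and without the array of L-histidinol plus alpelisib. For both against osimertinib it was 4 without the vehicle array, 4 without the L-histidinol array, 1 without the array of L-histidinol plus osimertinib and 7 without the array of L-histidinol with both drugs. For both against alpelisib it was 7 without the alpelisib array, 7 without the array of both drugs and 12 without the array of L-histidinol plus alpelisib.

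Without _x_at and _s_at probe sets, which leaves 39 members, 9 were called for L-histidinol, 13 for both drugs against vehicle and 10 for both against alpelisib. Among the 21 genes with a mean log2 of at least 5, 3 were called for alpelisib. For both against osimertinib, 1 was called with no intensity trend and 4 with all 2-way terms. The shares of all genes called in these refits were not counted either. Centring gave 10 members higher and 4 lower with osimertinib, where all called genes were 35.7% higher in place of 54.0%, and 2 and 2 with alpelisib, where they were 32.3% in place of 61.8%. It gave 2 and 0 for both against osimertinib, 36.1% in place of 44.6%. Calls kept in every setting that could give a value were 7 of 15 for L-histidinol, 10 of 15 for osimertinib, 0 of 5 for alpelisib, 13 of 20 for both drugs against vehicle, 1 of 2 for both against osimertinib and 7 of 19 for both against alpelisib. A gene whose only probe sets are _x_at or _s_at has no value when these are left out. No detection calls were used here, so the dim genes were not tested against the array background.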
